A study of Arabidopsis thaliana with 8 samples.

Results

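The 9 genes described here belong to the jasmonate response and were followed through RNA of Arabidopsis thaliana seedlings. They are MYC2, the JAZ repressor genes JAZ1, JAZ2, JAZ5, JAZ9 and JAZ10, and the response genes VSP1, VSP2 and CORI3, taken by locus identifier from a deposited table of 33602 genes. All 9 were in the table and all 9 passed the filter on low counts, which 21384 genes passed. The table lists the JAZ genes under their TIFY names (TIFY10A, TIFY10B, TIFY11A, TIFY7 and TIFY9). There were 4 genotypes with 2 libraries apiece, namely Col-0 wild type (WT), the single mutants cob-6 and sfr6-3, and cob-6sfr6-3, called the double mutant here. All seedlings were 7 days old and kept in 24 h light. COB, the gene of the cob-6 allele, codes for the COBRA protein at the cell surface, needed for orienting cellulose. MED16, the gene of the sfr6-3 allele, codes for part of the tail of Mediator, which links transcription factors to RNA polymerase II, and the study's title describes it as a suppressor of COBRA. The labels name 1 allele of each gene and do not say whether the replicates were grown apart or how many seedlings a library holds, and a p-value here speaks only for the spread among these libraries, which may be technical.

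Jasmonate is a plant hormone made from membrane lipids after wounding and herbivore attack. Its active form, jasmonoyl-isoleucine, joins the F-box protein COI1 to JAZ repressors, which are then ubiquitinated and degraded. JAZ proteins otherwise hold back MYC2, a basic helix-loop-helix factor that binds the G-box, together with the adaptor NINJA and TOPLESS corepressors. Many JAZ genes are themselves induced by MYC2, which gives the pathway a negative feedback. VSP1 and VSP2, which encode vegetative storage proteins, and CORI3, which encodes a cystine lyase induced by the bacterial jasmonate mimic coronatine, are widely used readouts of the MYC branch.

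Of the 9 promoters 3 held a match to the G-box or its close variant in the 250 bases before the gene start, and these are shown first because the G-box is the site that MYC2 is known to bind. Sequences and gene starts are those of RefSeq, build TAIR10.1, to which all 9 genes were matched by locus. The bases run 5′ to 3′ on the gene's own strand, and the capitals mark the match. The G-box was searched as CACGTG, which reads the same on both strands, and the variant as CACATG or its reverse complement CATGTG. The JAZ2 window (chr1:28150447-28150696, minus strand) holds a G-box, the JAZ9 window (chr1:26654279-26654528, plus strand) and the JAZ10 window (chr5:4218536-4218785, plus strand) each hold the variant.
JAZ2: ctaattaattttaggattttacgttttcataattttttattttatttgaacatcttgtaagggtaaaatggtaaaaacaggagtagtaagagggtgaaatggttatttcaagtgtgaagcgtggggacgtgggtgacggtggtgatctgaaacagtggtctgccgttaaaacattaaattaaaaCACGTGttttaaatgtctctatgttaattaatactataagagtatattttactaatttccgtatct
JAZ9: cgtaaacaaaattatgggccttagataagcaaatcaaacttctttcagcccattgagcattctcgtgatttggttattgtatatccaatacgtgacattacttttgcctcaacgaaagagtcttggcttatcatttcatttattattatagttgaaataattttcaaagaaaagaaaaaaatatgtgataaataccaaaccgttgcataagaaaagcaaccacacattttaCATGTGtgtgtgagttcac
JAZ10: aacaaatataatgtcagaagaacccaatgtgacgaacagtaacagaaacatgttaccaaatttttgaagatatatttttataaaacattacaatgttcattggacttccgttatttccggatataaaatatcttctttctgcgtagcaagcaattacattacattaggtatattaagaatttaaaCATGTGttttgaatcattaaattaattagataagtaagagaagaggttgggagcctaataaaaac
The match begins 66 bases before the RefSeq gene start in JAZ2, 19 bases before it in JAZ9 and 65 bases before it in JAZ10. The RefSeq start lay close to the deposited one for JAZ2 and VSP2 only, and upstream of it for the other genes. The JAZ9 window ends at 26654528, whereas the deposited JAZ9 starts at 26654768. Its match thus lies outside the 250 bases before the deposited start. Which windows hold a match depends on the start used. Among 27443 windows of protein-coding genes, 6.49% held the G-box and 11.1% the variant. In the other 6 windows these letters were not found, and no window of the 9 held the GCC-box (AGCCGCC or its reverse complement GGCGGCT), which 0.587% of all windows held.

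VSP1 and VSP2 are neighbours on chromosome 5, and their windows are shown because the levels of both were lowest in sfr6-3. Here the capitals mark runs of at least 12 bases that occur in both windows. The VSP1 window is chr5:8509202-8509451 and the VSP2 window is chr5:8502225-8502474, both on the minus strand.
VSP1: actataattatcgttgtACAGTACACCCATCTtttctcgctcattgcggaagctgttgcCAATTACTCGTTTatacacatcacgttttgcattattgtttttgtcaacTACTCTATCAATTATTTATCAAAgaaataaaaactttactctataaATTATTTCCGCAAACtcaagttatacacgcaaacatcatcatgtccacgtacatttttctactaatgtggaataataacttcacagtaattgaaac
VSP2: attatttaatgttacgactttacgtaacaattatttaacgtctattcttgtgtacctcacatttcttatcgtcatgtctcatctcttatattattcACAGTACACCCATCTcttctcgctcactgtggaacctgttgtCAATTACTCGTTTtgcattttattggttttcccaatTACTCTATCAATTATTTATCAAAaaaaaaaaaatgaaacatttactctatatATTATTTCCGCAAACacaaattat
Shared runs covered 66 of the 250 bases in each, and the longest had 23 bases. The transcripts could still be told apart, since 99.8% of VSP1 reads and 99.9% of VSP2 reads were unique to their gene. The other 7 genes were read at 100% by unique reads.

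The other 7 libraries held 24011199 to 37744914 gene reads, whereas the library labelled WT replicate 1 held 324504432. By unique reads, the count in WT replicate 1 was never below the sum of the remaining 7 libraries (0 of 25179 genes), and the 9 genes showed the same. For 1178 genes with reads it equalled that sum exactly. MYC2 had 12363 unique reads in WT replicate 1 and 7556 in the other 7 together, and CORI3 had 5316 and 4452. Intron reads of VSP2 numbered 56 in WT replicate 1, 55 in double mutant replicate 2 and 0 in each of the remaining 6. WT replicate 1 can therefore not be taken as independent of the mutants, although the main fit treats it so. Whether it holds the reads of the other libraries was not tested. Changes against WT that the results turn on are therefore followed by the value without that library, where WT replicate 2 is the lone wild type and is assumed to vary like the other genotypes, or by the value after subtracting from it the summed unique reads of the other 7. COB was lower in the genotypes with cob-6, at 143 and 239 CPM in WT, 68.3 and 66.9 in cob-6, 187 and 187 in sfr6-3 and 82.5 and 70.3 in the double mutant. MED16 was lower in the genotypes with sfr6-3, at 24.3 and 34.5 CPM in WT, 29.3 and 39.1 in cob-6, 8.59 and 8.45 in sfr6-3 and 10.8 and 7.48 in the double mutant. CPM are counts scaled to each library's TMM-adjusted total, and values are given for replicate 1 and then replicate 2. Of 8 green tissue markers and 9 root markers, 0 were without reads in any library.

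MYC2 (AT1G32640, chromosome 1, 11798810 to 11800988; gene positions are those deposited, whose frame matched TAIR10.1), the transcription factor of the branch, held nearly the same level in every genotype. Its levels were 38.2 and 38.6 CPM in WT, 50.1 and 34.8 in cob-6, 39.0 and 35.1 in sfr6-3, and 35.9 and 42.8 in the double mutant. The range of each genotype overlapped those of the other 3. Per exon length and library size, as the authors' RPKM, the median of MYC2 over the 8 libraries was 17.1 (16.1 to 23.8), second of the 9 genes to that of JAZ2 at 25.2 (19.9 to 29.4). CORI3, next by its median of 11.6, ranged from 3.67 to 33.1 and passed both in cob-6 replicate 1 only. The fitted log2 changes of MYC2 lay between -0.11 ± 0.18 (SE, n = 2 libraries per genotype here and below), in the double mutant against cob-6 (adjusted p = 0.8), and 0.15 ± 0.18, in cob-6 against WT (adjusted p = 0.999). Without cob-6 replicate 1 the latter was -0.14.

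JAZ9 (AT1G70700, chromosome 1, 26654768 to 26657064), a repressor closely related to JAZ3 and JAZ4, was the gene of the 9 that changed past the threshold. Its level was 12.7 and 17.8 CPM in WT, 17.9 and 16.9 in cob-6, 9.87 and 12.3 in sfr6-3, and 4.39 and 5.57 in the double mutant. Both double mutant libraries lay below every other library, and both sfr6-3 libraries lay below both WT and both cob-6 libraries. In the double mutant JAZ9 fell by 1.8 ± 0.24 on the log2 scale against cob-6 (adjusted p = 0.00468), a 3.48-fold lower level. Against WT it fell by 1.6 ± 0.24 (adjusted p = 0.0107), at -1.83 without WT replicate 1 (adjusted p = 0.00182), -1.68 after the subtraction (adjusted p = 0.000657) and -1.34 without WT replicate 2 (adjusted p = 0.0614). With only WT and the double mutant in the fit, the adjusted p was 0.0803. Against sfr6-3 the change was -1.15 ± 0.24 (adjusted p = 0.1) and in sfr6-3 against WT it was -0.45 ± 0.23 (adjusted p = 0.963), or -0.69 without WT replicate 1 and -0.54 after the subtraction, neither called. The interaction, defined as the double mutant's change from sfr6-3 less the change of cob-6 from WT, was -1.35 ± 0.33 (adjusted p = 0.361), so a departure from additive effects did not pass the threshold.

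JAZ9 reads could also be split by kind. Reads across exon junctions made up 29.8% and 28.1% of its exon reads in WT, 30.6% and 33.9% in cob-6, 27.8% and 31.3% in sfr6-3, and 35.7% and 40.7% in the double mutant. The double mutant shares, from 112 and 204 exon reads, were the highest of the 8 libraries, and no test was made of them. Over all genes the share was 15.7% to 16.5%. Intron reads of JAZ9 were few in the mutants, from 1 to 12 a library.

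**Figure D1:**
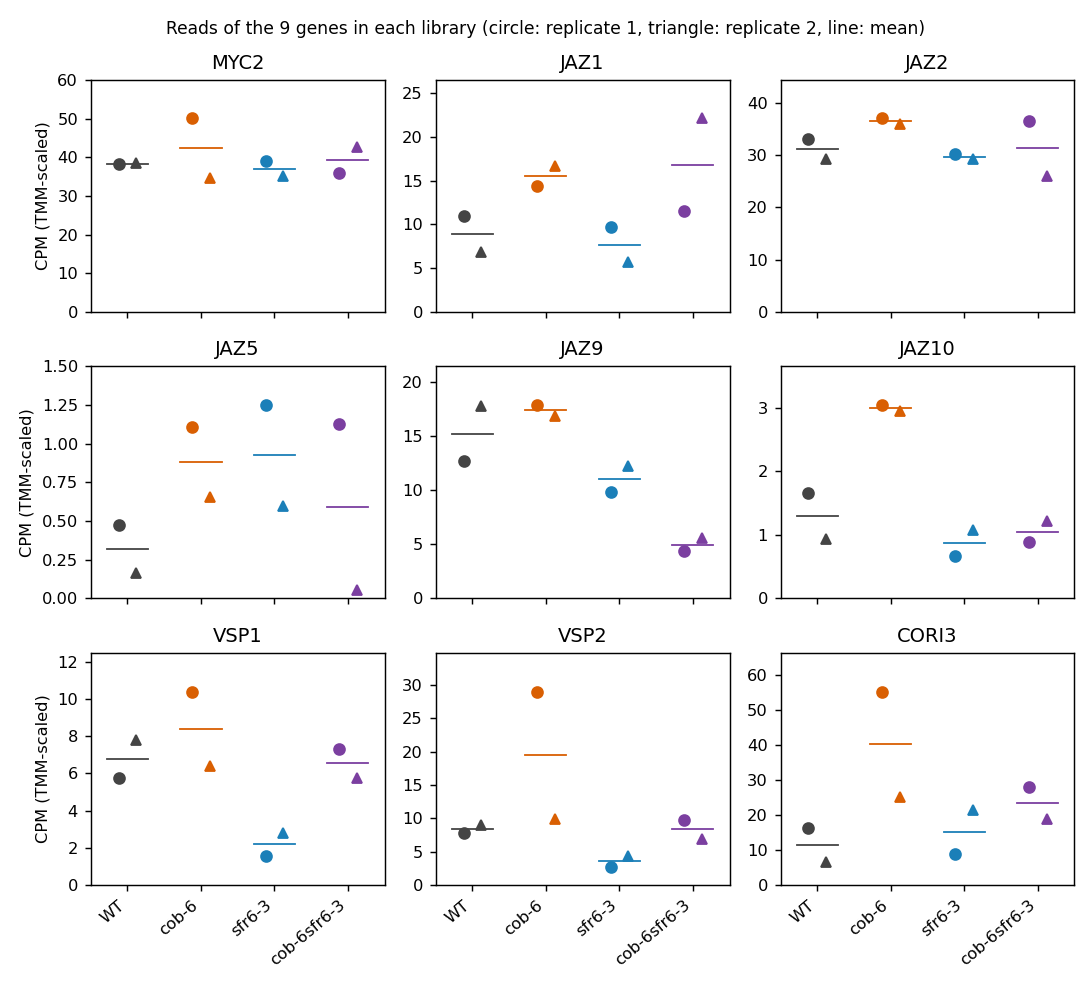
Reads of the 9 genes in each library as TMM-scaled CPM (vertical axes start at 0 and differ between panels), by genotype, with circles for replicate 1, triangles for replicate 2 and a line at the mean. JAZ9 is lowest in both double mutant libraries, at 4.39 and 5.57 CPM, VSP1 and VSP2 are lowest in sfr6-3, and CORI3 and VSP2 spread widely between the cob-6 replicates.

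JAZ1 (AT1G19180, chromosome 1, 6622094 to 6623620), an early jasmonate-induced repressor, was higher in both genotypes with cob-6 than in the genotypes without it. It had 10.9 and 6.86 CPM in WT, 14.4 and 16.7 in cob-6, 9.68 and 5.69 in sfr6-3, and 11.5 and 22.1 in the double mutant. The lowest library with cob-6 was thus above the highest without it, by 11.5 against 10.9 CPM. No single contrast passed the threshold: the log2 change was 0.79 ± 0.34 in cob-6 against WT (adjusted p = 0.884), 1.13 ± 0.34 in the double mutant against sfr6-3 (adjusted p = 0.194) and 0.9 ± 0.34 in the double mutant against WT (adjusted p = 0.256). The change against sfr6-3 was 1.52 without double mutant replicate 1 (adjusted p = 0.0452) and 0.58 without replicate 2 (adjusted p = 0.483), so it rested on 1 library. The change against WT was 0.34 without double mutant replicate 2 (adjusted p = 0.679) and 0.62 without WT replicate 2 (adjusted p = 1.0). It was 1.29 without WT replicate 1 (adjusted p = 0.106) and 1.15 after the subtraction (adjusted p = 0.0495). In cob-6 against WT those treatments of WT replicate 1 gave 1.18 (adjusted p = 0.314) and 1.04 (adjusted p = 0.235).

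JAZ10 (AT5G13220, chromosome 5, 4218888 to 4220883), a repressor known for splice forms that resist degradation, was highest in cob-6. WT had 1.65 and 0.933 CPM, cob-6 had 3.04 and 2.95, sfr6-3 had 0.663 and 1.08, and the double mutant had 0.894 and 1.21. Both cob-6 libraries lay above the other 6, from 79 and 72 reads. The change was 1.19 ± 0.57 in cob-6 against WT (adjusted p = 0.949) and -1.5 ± 0.58 between the double mutant and cob-6 (adjusted p = 0.225), neither past the threshold. The former was 1.68 without WT replicate 1 (adjusted p = 0.619) and 1.05 after the subtraction (adjusted p = 0.789).

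JAZ2 (AT1G74950, chromosome 1, 28148575 to 28150444) and JAZ5 (AT1G17380, chromosome 1, 5955488 to 5957212), also repressors, were the most and the least read per length (by RPKM) of the 5 JAZ genes followed. JAZ2 stood at 33.0 and 29.3 CPM in WT, 37.0 and 36.0 in cob-6, 30.2 and 29.2 in sfr6-3, and 36.6 and 25.9 in the double mutant, where the replicates spanned nearly its whole range. JAZ5 had 154 and 4 reads in WT, 29 and 16 in cob-6, 32 and 16 in sfr6-3, and 29 and 2 in the double mutant. JAZ5 thus lay at 1.13 and 0.0538 CPM in the 2 replicates of the double mutant, and no difference between genotypes was detectable at that depth.

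The response genes VSP1 (AT5G24780, chromosome 5, 8507590 to 8508957) and VSP2 (AT5G24770, chromosome 5, 8500476 to 8502224) were lowest in sfr6-3. VSP1 stood at 5.77 and 7.79 CPM in WT, 10.4 and 6.4 in cob-6, 1.56 and 2.81 in sfr6-3, and 7.31 and 5.76 in the double mutant. Its change was -1.62 ± 0.37 in sfr6-3 against WT (adjusted p = 0.204) and 1.58 ± 0.37 in the double mutant against sfr6-3 (adjusted p = 0.128), while the double mutant stood at -0.05 ± 0.35 against WT (adjusted p = 0.966). DESeq2 called both of the first 2 changes, at adjusted p = 0.00813 and 0.0078, and the main edgeR fit called neither. Without the filter on low counts edgeR called both, at adjusted p = 0.00227 and 0.00306. Across the alternatives the number called over all genes ranged from 3 to 408 in sfr6-3 against WT (main 28). In the double mutant against sfr6-3 it ranged from 3 to 833 (main 16). The shares over all genes in those 2 settings are not given here, so their calls are not read as support for VSP1. In sfr6-3 against WT the VSP1 change was -1.83 without WT replicate 1 and -1.62 after the subtraction (adjusted p = 0.0583). The interaction was 1.26 ± 0.51 (adjusted p = 0.515).

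VSP2 stood at 7.78 and 9.01 CPM in WT, 29.0 and 9.93 in cob-6, 2.77 and 4.41 in sfr6-3, and 9.79 and 6.97 in the double mutant. The sfr6-3 libraries lay below all others, and cob-6 replicate 1 lay far above the rest. The change was 1.22 ± 0.41 in cob-6 against WT (adjusted p = 0.665) and -1.22 ± 0.43 in sfr6-3 against WT (adjusted p = 0.669). Without WT replicate 1 these were 1.11 and -1.32, and after the subtraction 1.54 and -0.89, none of them called. For the double mutant it came to -1.22 ± 0.41 against cob-6 (adjusted p = 0.173) and 1.22 ± 0.43 against sfr6-3 (adjusted p = 0.24). Leaving out cob-6 replicate 1 moved the change in cob-6 against WT to 0.25 and that of the double mutant against cob-6 to -0.25. Without cob-6 replicate 2 the latter was -1.79 (adjusted p = 0.0447).

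CORI3 (AT4G23600, chromosome 4, 12310619 to 12313212) had its highest value, 55.4 CPM, in cob-6 replicate 1, with 25.3 in replicate 2. WT had 16.4 and 6.73 CPM, against 8.94 and 21.6 in sfr6-3 and 28.1 and 18.8 in the double mutant, whose range overlapped that of cob-6. The cob-6 and WT libraries did not overlap, and the replicates differed widely in both WT and sfr6-3. In cob-6 against WT the change was 1.76 ± 0.47 (adjusted p = 0.435), and 1.09 without cob-6 replicate 1. Taking the other 7 libraries off WT replicate 1 brought it to 7.0 CPM beside 7.08 in WT replicate 2. The change in cob-6 was then 2.59 ± 0.38 (adjusted p = 0.00697), and 2.58 ± 0.53 without WT replicate 1 (adjusted p = 0.0455). Against WT, the double mutant stood at 0.97 ± 0.47 (adjusted p = 0.366) with all libraries, at 1.8 ± 0.52 without WT replicate 1 (adjusted p = 0.0762) and at 1.81 ± 0.38 with WT replicate 1 so reduced (adjusted p = 0.0136). In sfr6-3 against WT it stood at 0.36 ± 0.47 (adjusted p = 0.997), and at 1.18 and 1.19 under those treatments (adjusted p = 0.491 and 0.261).

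**Figure D2:**
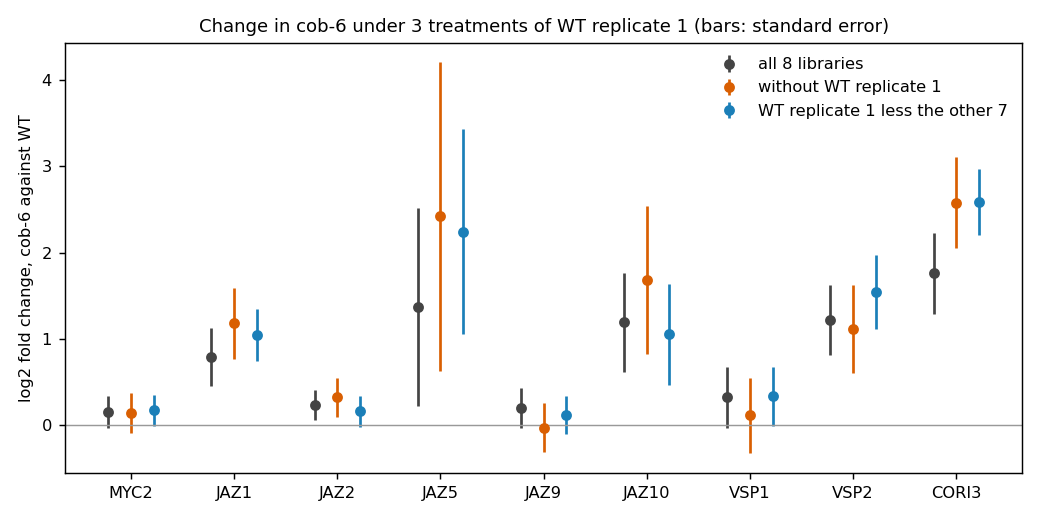
Log2 fold change in cob-6 against WT (vertical axis) for each of the 9 genes, with standard errors as bars, with all 8 libraries, without WT replicate 1, and after subtracting the unique reads of the other 7 from WT replicate 1. CORI3 moves from 1.76 to 2.58 and 2.59, while MYC2 stays between 0.14 and 0.17.

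Taken by comparison, all 9 genes had positive log2 changes in cob-6 against WT, with a median of 0.79 beside 0.01 over all tested genes. By edgeR 0 of the 9 were called, where 0.0889% of all genes were called, all of them lower, and DESeq2 called 0 of the 9. At an unadjusted p below 0.05, 3 were higher (JAZ1, VSP2 and CORI3), where 1.91% of all genes were. In 6 of the 9 both cob-6 libraries were above both WT libraries, where 20.4% of all genes were. The median was 1.11 without WT replicate 1 and 1.04 after the subtraction, with 3 genes again higher at that level, where 4.26% and 2.96% of all genes were. The sign of 3 of them rested on 1 library: JAZ9 stood at -0.03 without WT replicate 1, and MYC2 and VSP1 at -0.14 and -0.07 without cob-6 replicate 1. Beside these values, the summed level of the 8 green markers was 28400 and 33000 CPM in cob-6 against 37700 and 39200 in WT, and that of the 9 root markers 163 and 205 against 224 and 249. Singly, 8 of the 8 green markers and 6 of the 9 root markers were lower in cob-6, and 3 root markers were higher. The part of tissue makeup in the changes was not tested, and in RNA of seedlings fewer cells of a type cannot be told apart from less RNA per cell.

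In sfr6-3 against WT, edgeR called 0 of the 9 genes, where it called 0.131% of all genes. DESeq2, whose share over all genes is not given here, called 1 (VSP1). At an unadjusted p below 0.05, 2 were lower (VSP1 and VSP2), where 4.41% of all genes were. The median log2 change was -0.23, beside 0.0 over all tested genes. These counts changed with WT replicate 1. Without it 3 were lower (JAZ9, VSP1 and VSP2) and 1 higher (CORI3), where 5.49% and 3.52% of all genes were, and the median was -0.06. After the subtraction 2 were lower (JAZ9 and VSP1) and 1 higher (CORI3), where 5.67% and 2.6% were, and the median was -0.13. Both sfr6-3 libraries lay below both WT libraries for 3 genes (JAZ9, VSP1 and VSP2), where 18.9% of all genes did, and above them for 1 (JAZ5), where 17.2% did.

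Between the double mutant and cob-6, 1 of the 9 genes was called, JAZ9, which was lower, where 1.36% of all genes were called and 0.893% called lower. Log2 changes were negative for 8 of the 9, with a median of -0.62 beside 0.01 over all tested genes, and JAZ1 was the exception at 0.11 ± 0.34 (adjusted p = 0.899). At an unadjusted p below 0.05, 3 were lower (JAZ9, JAZ10 and VSP2), where 8.71% of all genes were. For 3 genes (also JAZ9, JAZ10 and VSP2) both double mutant libraries lay below both cob-6 libraries, where 24.0% of all genes did. Markers of other tissues moved in this comparison too. The summed green markers went from 28400 and 33000 CPM in cob-6 to 37700 and 37400 in the double mutant, and the root markers from 163 and 205 to 234 and 279, without overlap. Single markers went both ways: 5 green markers rose and 3 fell, and 5 root markers rose and 4 fell. The mean of RBCS1A alone went from 11900 CPM in cob-6 to 18400 in the double mutant. The root phosphate transporter gene PHT1-1 was called higher (0.88 ± 0.18, adjusted p = 0.0392), while the root marker TIP2-3 stood at -1.59 ± 0.61 (adjusted p = 0.222). Only 45.4% of PHT1-1 reads were unique to it, so its value may include reads of other genes. The part of tissue makeup was not tested. This comparison and that of cob-6 with WT share the cob-6 libraries, so their signs are not independent. The authors' deposited table of this comparison gave JAZ9 a fold of -3.41 (p = 0.00188), VSP2 -2.52 (p = 0.0161) and CORI3 -1.71 (p = 0.0771), where a minus sign marks a fall. The authors' deposited list of 147 genes described as changed in cob-6 and no longer in the double mutant held VSP2 and CORI3 of the 9, and was made from these same libraries.

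Between the double mutant and sfr6-3, edgeR called 0 of the 9, where it called 0.0748% of all genes. DESeq2, again without a share over all genes, called 2 (JAZ9 lower and VSP1 higher). At an unadjusted p below 0.05, 3 were higher (JAZ1, VSP1 and VSP2), where 7.6% of all genes were, and 1 was lower (JAZ9), where 6.78% were. For the same 3 genes both double mutant libraries lay above both sfr6-3 libraries, where 21.0% of all genes did, and for JAZ9 below, where 20.7% did. Between the double mutant and WT, 1 was called (JAZ9, lower), where 0.846% of all genes were called and 0.8% called lower. At an unadjusted p below 0.05, 1 was higher (JAZ1), where 6.02% were, and 1 lower (JAZ9), where 8.44% were. After the subtraction, 2 were higher (JAZ1 and CORI3), where 8.17% of all genes were, and 1 lower (JAZ9), where 9.88% were. Without WT replicate 1 the changes of JAZ1, CORI3 and JAZ9 were 1.29, 1.8 and -1.83. With all libraries kept, the 2 genotypes lay apart upward for 2 (JAZ1 and CORI3), where 22.3% did, and downward for 1 (JAZ9), where 22.4% did. VSP1, VSP2 and JAZ2 then stood at -0.05, 0.0 and 0.0 on the log2 scale, with standard errors of 0.35, 0.41 and 0.17. The interaction called 0 of the 9 in edgeR and 0 in DESeq2, where edgeR called 0.0514% of all genes, and at an unadjusted p below 0.05 it had 1 gene above 0 (VSP1), where 5.09% were, and 1 below (JAZ9), where 3.99% were.

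**Figure D3:**
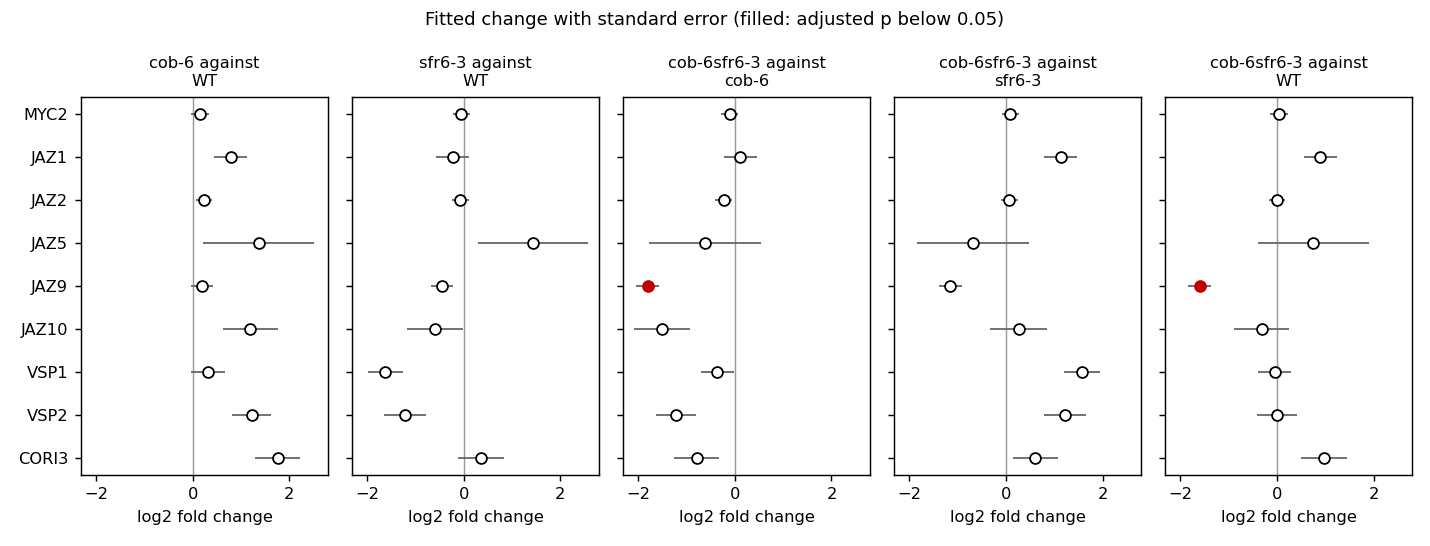
Fitted log2 fold changes (horizontal axis) of the 9 genes in 5 pairwise comparisons, with standard errors as bars and filled points for an adjusted p below 0.05. JAZ9 is filled in the double mutant against cob-6, at -1.8, and against WT, at -1.6, and no other point is filled.

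Other genes of the pathway were read from lists by role. Of 8 further JAZ genes 6 were tested and 0 were called in any comparison. Between the double mutant and cob-6 they had a median of -0.35, and JAZ4, of the clade of JAZ9, gave -1.3 ± 0.53 (adjusted p = 0.244), from 3.69 and 3.08 CPM in cob-6 to 2.06 and 0.726. JAZ3, also of that clade, stood at 23.5 and 19.7 CPM in cob-6 and 20.0 and 15.8 in the double mutant. The receptor and corepression genes COI1, NINJA, TPL and MED25 gave 0 calls, and NINJA went from 66.7 and 64.0 CPM in cob-6 to 55.9 and 43.8 in the double mutant (log2 change -0.39 ± 0.15, adjusted p = 0.216). Of 5 related helix-loop-helix genes 0 were called. MYC3 and MYC4, which act beside MYC2, lay at 31.2 to 43.5 and 17.3 to 22.1 CPM over all libraries. JAM1, which opposes MYC2, gave -0.61 ± 0.19 in the double mutant against cob-6 (adjusted p = 0.147).

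Of 13 genes that make jasmonate, all tested, 0 were called in any comparison with all libraries in the fit, and at most 2 in a comparison with WT under either treatment of WT replicate 1. In cob-6 against WT 12 of them had positive changes and 5 were higher at an unadjusted p below 0.05, where 1.91% of all genes were, with a median of 0.35. After the subtraction 7 were higher, where 2.96% of all genes were, and the median was 0.42. Without WT replicate 1 the median was 0.57. Between the double mutant and WT the median was 0.51, with 4 higher at that level, where 6.02% of all genes were. After the subtraction 6 were higher there, where 8.17% of all genes were, and the median was 0.54. It was 0.74 without WT replicate 1. AOS, the allene oxide synthase of the pathway, stood at 96.8 and 74.5 CPM in WT and 149 and 147 in the double mutant (0.79 ± 0.18, adjusted p = 0.0727). It passed the threshold without WT replicate 1, at 0.99 (adjusted p = 0.0227), and after the subtraction, at 1.01 (adjusted p = 0.00289). AOC2, the next enzyme, stood at 65.8 and 44.0 CPM in WT and 142 and 111 in cob-6 (1.2 ± 0.31, adjusted p = 0.387). Its change was 1.53 without WT replicate 1 (adjusted p = 0.0888) and 1.5 after the subtraction (adjusted p = 0.0243). Of 7 turnover genes 6 were tested and 0 were called. ST2A, a hydroxyjasmonate sulfotransferase, gave -1.87 ± 0.49 in the double mutant against cob-6 (adjusted p = 0.0942), from 18.7 and 12.6 CPM to 5.48 and 3.17.

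Among 9 tested of 11 other jasmonate-responsive genes, 2 were called lower in the double mutant against cob-6, where 0.893% of all genes were. Of the 9 tested, 6 had negative and 3 had positive log2 changes, with a median of -1.13. CLH1, a coronatine-induced chlorophyllase, went from 40.1 and 39.6 CPM in cob-6 to 15.6 and 20.7, while WT had 25.2 and 23.6 and sfr6-3 17.2 and 17.7 (log2 change -1.13 ± 0.17, adjusted p = 0.00842). JR1, a jacalin-related lectin, stood at 142 and 192 CPM in WT, 199 and 148 in cob-6, 110 and 112 in sfr6-3 and 90.4 and 88.9 in the double mutant. It fell by 0.95 ± 0.18 against cob-6 (adjusted p = 0.0272) and by 0.9 ± 0.18 against WT (adjusted p = 0.0435). Leaving out a library ended these calls in several cases: CLH1 stood at -1.12 without cob-6 replicate 1 (adjusted p = 0.0722) and at -1.14 without cob-6 replicate 2 (adjusted p = 0.064), the change itself hardly moving. JR1 against cob-6 stood at -0.73 without cob-6 replicate 1 (adjusted p = 0.271) and at -0.94 without double mutant replicate 2 (adjusted p = 0.104). Against WT it stood at -0.66 without WT replicate 2 (adjusted p = 0.358) and at -1.1 without WT replicate 1 (adjusted p = 0.00548). The authors' deposited list held CLH1, AOC1 and AOC2 of these other pathway genes.

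**Figure D4:**
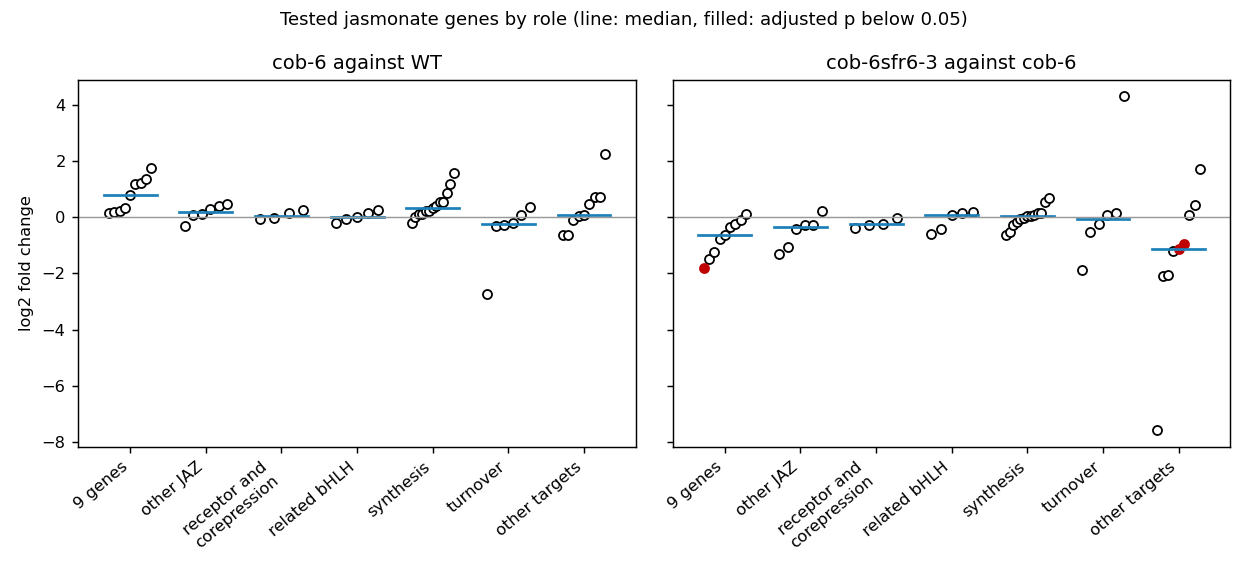
Log2 fold changes (vertical axis) of the tested jasmonate genes by role, each point a gene, for cob-6 against WT (left) and the double mutant against cob-6 (right), with a line at each median and filled points for an adjusted p below 0.05. The 9 genes have medians of 0.79 and -0.62, and the filled points in the comparison with cob-6 are JAZ9, JR1 and CLH1.

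The mean profile of the 9 genes, as log2 CPM centred on each gene's mean, was 0.04 and -0.32 in WT, 0.92 and 0.41 in cob-6, -0.5 and -0.3 in sfr6-3, and 0.08 and -0.34 in the double mutant. It was highest in cob-6 replicate 1. Across the 8 libraries, which share the dependence of WT replicate 1 described above, VSP2 followed this mean most closely of the 9, at Pearson's r = 0.884, then JAZ10 at 0.873, and JAZ9 least, at 0.369. Each of the 9 is itself part of this mean, which raises its r, so these values do not rank how closely the genes go together. Among 17699 other genes averaging 1 log2 CPM or more, those most like the mean profile were AT5G44580 (r = 0.977), AT1G71240 (0.976), ERD3 (0.972), the peroxidase gene listed as PER1_2 (0.965) and AT2G28540 (0.952). The leading 5 were these genes also without WT replicate 1, at r = 0.958 to 0.982 over 7 libraries. That library lay near the middle of the profile, at 0.04, so leaving it out was a weak check. As the highest of 17699 genes over 8 libraries, these r are high partly through the choice. They also do not show the size of a change, since AT2G28540 lay between 32.8 and 39.4 CPM. ERD3, first known as a gene induced early by dehydration, stood at 44.8 and 41.5 CPM in WT, 80.6 and 61.0 in cob-6, 32.7 and 39.3 in sfr6-3 and 52.9 and 43.3 in the double mutant.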

How the data were processed

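RNA of seedlings was sequenced as 100-base paired-end libraries, per the labels' protocols. The authors deposited whole-number counts per gene (total and unique gene reads, exon, intron and exon-junction reads) and RPKM, per the file headers, and for 1 comparison a signed fold (a score, negative for falls) and an EDGE p-value, per the file headers. The aligner, read counter, strandedness and build are not stated in those sources, so reads of overlapping antisense genes may be included. Deposited starts lay 1 base below the RefSeq TAIR10.1 start for 14688 of 32823 matched genes and 32813 overlapped their locus, so starts are printed plus 1 and sequences were read from that build. The workbook held 0 columns of other series.

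Total gene reads were tested with edgeR 4.0.16 in R 4.3.3 (quasi-likelihood test, TMM scaling, filterByExpr, 1 mean per genotype over all 8 libraries, 4 residual degrees of freedom), with Benjamini-Hochberg adjustment over 21384 genes per contrast and a call at 0.05. The script was tested on simulated data. DESeq2 1.42.0, other scalings, filters and read types, left-out libraries and a replicate block were alternatives. A count of 3 reads equals 0.00924 CPM in WT replicate 1 and 0.0795 to 0.125 in the others, which covers counting error only. The members, lists and alternatives were chosen with earlier results of these data known. All 9 members were named. Other pathway genes were named if called, or if among the 2 smallest p of their list and contrast, and like profiles by the highest r. JAZ3 in the double mutant against cob-6, MYC3 and MYC4 were added after their values were seen.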

Additional observations from a re-analysis of the deposited data

How the results depend on the processing

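The main counts of called genes among the 9 were 0 in cob-6 against WT, 0 in sfr6-3 against WT, 1 in the double mutant against cob-6, 0 against sfr6-3, 1 against WT and 0 in the interaction. With no filter on low counts these became 2, 2, 3, 4, 3 and 2 in that order. DESeq2 gave 2 for the double mutant against sfr6-3 and 1 for sfr6-3 against WT. The shares over all genes in those settings are not given here, so these counts are not read as a result about the 9. WT replicate 1 less the other 7 libraries gave 1 in cob-6 against WT, where 88 of 21022 genes were called. It gave 3 in the double mutant against WT, where 748 were, and 1 in the double mutant against sfr6-3. With only the genotypes compared in the fit, the double mutant against WT gave 0. Leaving out 1 library gave 0 to 1 in cob-6 against WT, 1 to 2 in the double mutant against cob-6, 0 to 1 against sfr6-3 and 0 to 1 against WT. The causes were not tested. Over all 54 gene and contrast pairs of the 9 genes, 26 had values on both sides of 0 across the alternatives, among them MYC2 in all 6 contrasts. The 16 pairs with an unadjusted p below 0.05, from 6 of the 9 genes, gave 270 values, of which 0 changed sign, 248 stayed on their side of the threshold, 20 crossed into it and 2 fell out. JAZ9 in the double mutant against cob-6 was called in each alternative run, at -1.98 to -1.64. The count over all genes moved more: 0 to 356 in cob-6 against WT (main 19), 3 to 408 in sfr6-3 against WT (28), 68 to 1314 in the double mutant against cob-6 (291), 3 to 833 against sfr6-3 (16), 59 to 1185 against WT (181) and 4 to 224 in the interaction (11).

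Replicate numbers share only a number: deviations of same-numbered libraries correlated at -0.0743 to 0.028 across genes. With the replicate number as a block, the counts among the 9 stayed at 0, 0, 1, 0, 1 and 0, and JR1 in the double mutant against WT had an adjusted p of 0.0653. Depth limits JAZ5 and JAZ10 most, with 2 to 79 reads a library outside WT replicate 1.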
